A study of Homo sapiens with 33 samples.

Results

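Breast cancer cells that had received V50 together with SY200 were compared with cells that had received V50 alone, 12 h after the start of treatment. The comparison rests on 4 of the 33 libraries of the series, chosen by their labels: SY200/V50 and V50 at 12 h in each of 2 triple-negative cell lines, spelled MDA-MD-231 and MDA-MD-468 in the labels. Each line, treatment and time has 1 library, so the lines pair the 2 SY200/V50 libraries with the 2 V50 libraries. The series describes the agents as inhibitors of CDK7 and of CDK9, without matching either agent to its kinase in the labels, and the numbers in the agents' names carry no unit there. Another 18 inhibitor libraries of the same lines give the background: DMSO and untreated parental cells at 0 h, SY200 alone, and V50 or SY200/V50 at 3 and 6 h. All groups are unmodified cell lines grown in culture, every control is from 0 h, and separate cultures are not stated. The p-values therefore measure mostly how far the 2 lines differ in their responses, together with the spread between DMSO and parental libraries. They do not measure the spread between repeated cultures, and part of the spread may be technical.

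CDK7 is the kinase of the CDK-activating complex within the general transcription factor TFIIH. P-TEFb, in which CDK9 pairs with a T-type cyclin, frees paused RNA polymerase II near the start of genes and is held inactive by HEXIM proteins on the 7SK RNA. When polymerase release stops, mRNAs with short lifetimes disappear first, and blocked cells can free P-TEFb from 7SK and so regain transcription. The libraries count 3' ends of poly(A) RNA, and levels are given as CPM, counts relative to the library size after TMM scaling, a scaling that takes most genes as unchanged.

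At 12 h the mRNAs of MCL1, CDK7 and CDK9 were lower with SY200/V50 than with V50 alone, while most genes of cytosolic ribosomal proteins, oxidative phosphorylation and the mitochondrial genome were higher on the TMM scale. MCL1, whose protein protects cells from apoptosis, was at 401 CPM with V50 and 22.3 CPM with SY200/V50 in MDA-MD-231, and at 546 and 154 CPM in MDA-MD-468. CDK7 mRNA was at 50.9 against 4.47 CPM and 19.4 against 7.67 CPM, and CDK9 mRNA at 92.2 against 18.1 CPM and 53.4 against 25.1 CPM. In both lines and for all 3 genes the SY200/V50 library lay below the V50 library. Of 18911 genes tested with edgeR's quasi-likelihood test (Benjamini-Hochberg adjusted p under 0.05), 37.6% were called: 3656 higher (19.3%) and 3446 lower (18.2%). The falls were larger than the rises, since 2865 genes (15.1%) fell and 1356 (7.17%) rose at least 2-fold. The lower genes had a median log2 difference of -1.85 in MDA-MD-231 against -1.30 in MDA-MD-468, and 3339 of the 3446 were below 0 in both lines. For the higher genes the medians were 1.05 and 0.74, and 3555 of the 3656 were above 0 in both. The spread behind these tests was pooled over all 22 inhibitor libraries. With the 4 libraries alone edgeR called 0 genes of 16293, and 4301 had an unadjusted p under 0.05. Omitting the MDA-MD-231 SY200/V50 library gave 3631 calls (1596 higher, 2035 lower), omitting the MDA-MD-468 V50 library gave 4530 (2016 higher, 2514 lower), and omitting the MDA-MD-231 V50 library gave 2062 higher and 3063 lower.

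**Figure D1:**
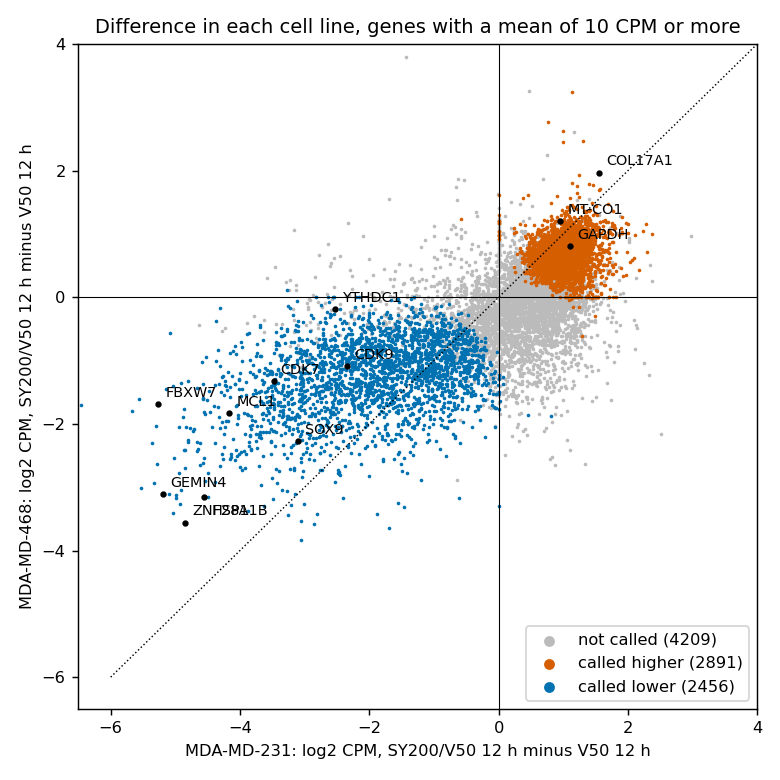
Each point is 1 gene with a mean of at least 10 CPM over the 4 libraries; the axes give the log2 CPM difference, SY200/V50 minus V50 at 12 h, in MDA-MD-231 (x) and MDA-MD-468 (y), and the dotted line marks equal differences. The 2456 genes called lower spread to the lower left, mostly further along the MDA-MD-231 axis, and the 2891 called higher, a direction set by TMM scaling, form a compact cloud.

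The direction of the rises depended on the scale. The mRNAs of 13 mitochondrial genes, whose transcription uses a separate polymerase, took 3.82% of the counts with V50 and 5.05% with SY200/V50 in MDA-MD-231, and 7.42% and 13.5% in MDA-MD-468, against 2.51% and 3.93% with DMSO. Scaling each library to these mRNAs moved the median log2 difference of all genes from 0.24 to -0.80. On that scale 7597 genes were lower and 38 higher (0.201%), all 3446 lower genes were lower too, and 38 of the 3656 higher genes were higher. Falls below are thus larger, by about this shift, on the mitochondrial scale, and rises are given on both scales. Counts of calls in the gene lists below compare with 18.2% lower and 19.3% higher among all genes. Whether the mitochondrial mRNAs themselves were constant was not tested. The 4 libraries held 18250064 to 20674018 counts and carried the markers of their lines. A list of 13 markers of MDA-MD-231 had medians of 205 to 407 CPM there against 2.06 to 3.87 CPM in MDA-MD-468, and 18 markers of MDA-MD-468 had 259 to 276 CPM against 5.99 to 11.9 CPM.

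The 12 largest falls among genes with a mean of 10 CPM or more had log2 differences of -4.23 to -3.71. ZNF281, a zinc finger transcription factor gene (chromosome 1, 200404940 to 200410056, minus strand, GRCh38), was at 54.1 CPM with V50 and 1.77 CPM with SY200/V50 in MDA-MD-231 and at 49.8 and 4.13 CPM in MDA-MD-468. Its log2 difference was -4.23 ± 0.60 (standard error; edgeR BH-adjusted p = 0.000101), or 18.7-fold. GEMIN4 encodes a part of the SMN complex that assembles spliceosomal snRNPs (chromosome 17, 744414 to 753999, minus strand). It was at 217 and 5.85 CPM in MDA-MD-231 and at 41.0 and 4.66 CPM in MDA-MD-468 (-4.22 ± 0.43, edgeR BH-adjusted p = 1.12e-05). HPS6, which encodes a subunit of a complex for lysosome-related organelles, was at 40.2 and 0.77 CPM, the latter from 10 counts, and at 18.7 and 2.23 CPM (-4.10 ± 0.57, edgeR BH-adjusted p = 8.35e-05). The stress-induced chaperone gene HSPA1B (chromosome 6, 31827735 to 31830255, plus strand) was at 220 and 9.32 CPM and at 173 and 19.3 CPM (-3.74 ± 0.47, edgeR BH-adjusted p = 4.58e-05), with the reservation that reads of its near-identical neighbour HSPA1A may be split between them. The others included the glycosyltransferase gene B3GNT2 (-4.13), the 3' end cleavage factor gene CSTF1 (-4.05), the mitotic histone kinase gene HASPIN (-4.04), ZNF526 (-3.93), the oxygenase gene RIOX1 (-3.89), RBM15 (-3.78), which encodes an adaptor of mRNA methylation, and ZBTB45 (-3.71). All 12 calls held without each of the 4 libraries.

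Promoter sequences of 3 of these genes, and of COL17A1 from the largest rises, are shown because the falls were shared by genes with unlike functions. Each is the stretch of 150 bases up to the start in RefSeq on GRCh38.p14, on the gene's strand, with a TATAAA in capitals where the stretch holds one. Gene positions in the text are those of GENCODE, and the RefSeq start lies inside the GENCODE gene by 1735 bases for GEMIN4, 77 for COL17A1, 20 for ZNF281 and 3 for HSPA1B.
GEMIN4 (chr17:752265-752414, minus strand): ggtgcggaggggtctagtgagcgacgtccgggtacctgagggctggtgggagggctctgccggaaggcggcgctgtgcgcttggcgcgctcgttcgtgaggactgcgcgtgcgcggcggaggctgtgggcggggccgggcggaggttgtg
ZNF281 (chr1:200410037-200410186, minus strand): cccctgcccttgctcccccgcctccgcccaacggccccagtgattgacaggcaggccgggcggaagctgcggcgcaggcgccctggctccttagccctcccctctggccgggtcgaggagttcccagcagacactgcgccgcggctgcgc
HSPA1B (chr6:31827588-31827737, plus strand): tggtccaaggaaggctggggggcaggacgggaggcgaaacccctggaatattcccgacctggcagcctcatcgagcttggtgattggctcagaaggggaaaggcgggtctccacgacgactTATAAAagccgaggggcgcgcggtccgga
COL17A1 (chr10:104085881-104086030, minus strand): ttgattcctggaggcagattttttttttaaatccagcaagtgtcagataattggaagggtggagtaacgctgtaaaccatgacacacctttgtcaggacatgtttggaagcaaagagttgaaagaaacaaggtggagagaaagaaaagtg
The stretches of GEMIN4 and ZNF281 are 74.0% and 74.7% G and C, that of HSPA1B is 62.7% with TATAAA beginning 29 bases before the start, and that of COL17A1 is 40.0%. Over the full RefSeq windows, 250 bases before to 50 after the start, TATAAA on the gene's strand occurred in 114 of 2687 genes called lower (4.24%), in 5.69% of those called higher, in 6.99% of those not called and in 6.10% of all 12009 tested genes with a window. Counting either strand, the shares were 7.29%, 8.11%, 10.5% and 9.28%. The median G and C content was 64.6% for lower and 64.8% for higher genes.

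The number of genes called between SY200/V50 and V50 grew from 3 to 12 h, when it was 7102. The gap did not widen steadily in every list. The immediate-early list had medians of -0.71, -1.20 and -0.56 at 3, 6 and 12 h. The list of lineage and oncogenic transcription factors had -0.27, -0.88 and -0.75. At 3 h edgeR called 1 gene of 18911 (0.00529%), the clone-named transcript RP11-309L24.6, which was lower (-4.70 ± 0.57), and 164 genes had an unadjusted p under 0.05. At 6 h it called 2 (0.0106%), and 1085 had an unadjusted p under 0.05; on the mitochondrial scale 343 genes were lower and 0 higher at 6 h, with 3096 at an unadjusted p under 0.05. The 2 genes were C15orf39, lower at -2.48 ± 0.35 (edgeR BH-adjusted p = 0.0184), and the spliceosomal RNA gene RNU5A-1, lower at -4.13 ± 0.59 (edgeR BH-adjusted p = 0.0184). The 3 genes were chosen after their values were seen. In libraries that the 12 h test did not compare, the genes called lower at 12 h had a median log2 difference of -0.09 at 3 h, with 73.5% below 0 against 50.2% of all genes, and of -0.41 at 6 h, with 88.9% below 0 against 44.1%. The genes called higher at 12 h had medians of 0.04 and 0.18, with 67.5% and 93.3% above 0, where all genes had 49.8% and 55.9%. The change of the difference from 3 to 12 h itself passed the edgeR test for 2441 genes (12.9%), 873 upward (4.62%) and 1568 downward (8.29%), and on the mitochondrial scale for 12 upward and 4910 downward.

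With V50 alone all of the 12 largest falls were higher at 12 h than at 3 h in both lines. The V50 libraries at 12 h also served to choose these genes, so this count was partly fixed by the choice. The same count was not made over all genes. At 6 h all 12 were lower with SY200/V50 than with V50 in both lines, again without a count over all genes. The 6 h libraries are not part of the 12 h difference, but they entered the filter and the pooled spread behind the choice. GEMIN4 in MDA-MD-231 was at 89.3 and 104 CPM in the DMSO and parental libraries. With V50 it was at 64.3, 25.4 and 217 CPM at 3, 6 and 12 h, and with SY200/V50 at 56.9, 15.0 and 5.85 CPM. HSPA1B in MDA-MD-231 was at 93.3 and 78.2 CPM in the controls, at 24.5, 22.1 and 220 CPM with V50 and at 26.3, 14.9 and 9.32 CPM with SY200/V50. In MDA-MD-231, with 1 library per time, both genes were thus below and then above their 0 h controls with V50. With SY200/V50 each later library of MDA-MD-231 was lower than the one before. No control was taken at 12 h, so V50 and the time in culture cannot be told apart in the levels above the controls. Over both lines the log2 difference of V50 at 12 h from the controls was 0.60 for GEMIN4 and 1.15 for HSPA1B. MCL1 in MDA-MD-468 was at 433 and 380 CPM in the controls, at 183, 328 and 546 CPM with V50 and at 123, 151 and 154 CPM with SY200/V50. In this line the SY200/V50 level of MCL1 stayed under the controls without a further drop. SOX9, a transcription factor gene of stem and progenitor cells, differed in that V50 left it low: in MDA-MD-468 it was at 74.8 and 144 CPM in the controls, at 22.3, 50.9 and 45.6 CPM with V50 and at 12.4, 10.8 and 9.38 CPM with SY200/V50.

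**Figure D2:**
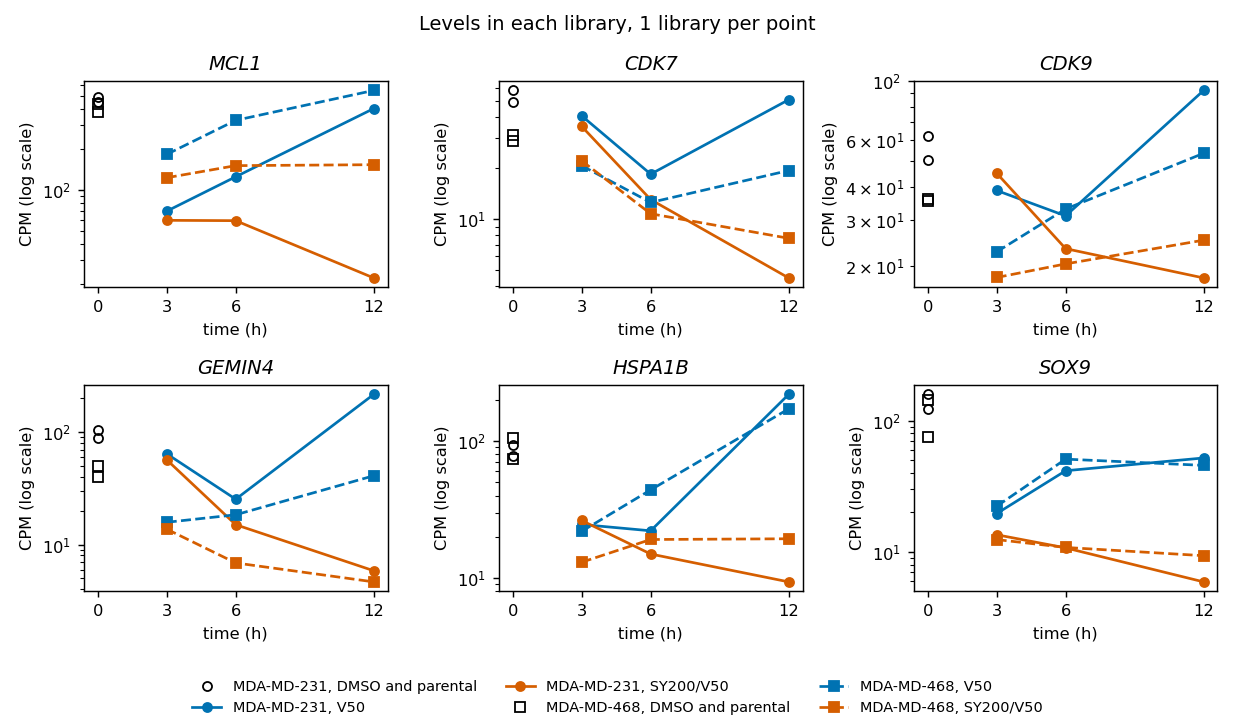
CPM on a log scale (y) against hours of treatment (x) for 6 genes, with 1 library per point; open symbols at 0 h are the DMSO and parental libraries, circles and solid lines MDA-MD-231, squares and dashed lines MDA-MD-468. In all 6 panels the V50 and SY200/V50 lines lie nearest at 3 h and farthest apart at 12 h; GEMIN4 in MDA-MD-231 ends at 217 CPM with V50 and at 5.85 CPM with SY200/V50.

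The genes that V50 lowered early were followed in the same way, as a set. Against the 4 control libraries edgeR called 616 genes lower with V50 at 3 h (3.26%) and 160 higher (0.846%). The 12 h difference is taken between other libraries, but both tests come from the same fit and share each gene's spread. A gene with a small spread was more readily called in both, so the 2 sets of calls are not independent. On the mitochondrial scale 7691 genes were lower with V50 at 3 h and 77 higher, so the set followed here is that of the TMM scale. Of the 616 genes, 564 (91.6%) were lower with SY200/V50 than with V50 at 12 h and 0 higher, where 18.2% of all genes were lower. Their median difference was -2.22, against 0.24 for all genes, and -3.26 on the mitochondrial scale. Their medians against the controls were -1.68, -1.30 and -0.07 with V50 at 3, 6 and 12 h, and -1.80, -2.10 and -2.33 with SY200/V50. These 6 values share the control libraries, and the first was used to choose the genes. SY200 alone at 12 h had a median of 0.13 for the same genes. Of the 160 genes higher with V50 at 3 h, 91 (56.9%) were higher with SY200/V50 than with V50 at 12 h and 7 (4.38%) lower, with a median of 0.80 that became -0.23 on the mitochondrial scale. Of the 616 genes, 412 were lower when the MDA-MD-231 SY200/V50 library was omitted and 224 in the fit without a term for the cell line.

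**Figure D3:**
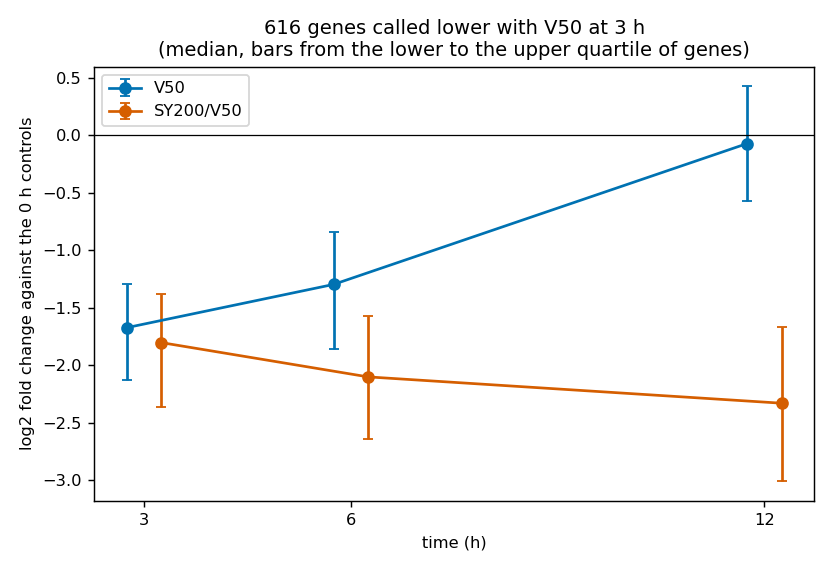
Median log2 fold change against the 0 h controls (y) of the 616 genes called lower with V50 at 3 h, at 3, 6 and 12 h (x), with V50 (blue) and SY200/V50 (orange); bars run from the lower to the upper quartile of genes, not of samples. The V50 median rises from -1.68 to -0.07 and the SY200/V50 median goes from -1.80 to -2.33.

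The kinases that the study concerns were themselves among the lower mRNAs. The log2 difference was -2.31 ± 0.35 for CDK7 (edgeR BH-adjusted p = 0.000161) and -1.66 ± 0.33 for CDK9 (edgeR BH-adjusted p = 0.00112). CDK1, the mitotic kinase, was at 242 and 213 CPM in MDA-MD-231 and at 162 and 88.3 CPM in MDA-MD-468, and did not pass (-0.49 ± 0.21, edgeR BH-adjusted p = 0.0799), although it passed without the MDA-MD-231 SY200/V50 library (-0.90). Of 28 genes of P-TEFb, 7SK and elongation, 19 were lower and 1 higher, against 18.2% and 19.3% of all genes, with a median of -1.12. Without the MDA-MD-231 SY200/V50 library 12 were lower. Among kinases and cyclins, CDK12 and CDK13, which also phosphorylate the polymerase tail, fell (-2.47 ± 0.40 and -2.58 ± 0.46). CCNT1, the cyclin of P-TEFb, was at 112 and 9.32 CPM in MDA-MD-231 and at 105 and 37.3 CPM in MDA-MD-468 (-2.31 ± 0.55), a call that ended without the MDA-MD-231 SY200/V50 library (-1.61). Among regulators, MEPCE, the capping enzyme of 7SK RNA, fell by 2.28 ± 0.28 (edgeR BH-adjusted p = 3.57e-05), from 37.1 to 5.08 CPM in MDA-MD-231 and from 71.8 to 19.4 CPM in MDA-MD-468. Elongation factor genes followed, with LEO1 and RTF1 of the PAF complex at -2.65 ± 0.41 and -1.39 ± 0.21 and the ELL partner gene EAF1 at -2.26 ± 0.36. HEXIM1, the P-TEFb inhibitor, did not follow them: it was already low with V50, at 13.7 CPM with V50 and 22.8 CPM with SY200/V50 in MDA-MD-231 and at 11.2 and 10.1 CPM in MDA-MD-468, where the DMSO libraries had 169 and 91.5 CPM (0.30 ± 0.26, edgeR BH-adjusted p = 0.386, and -0.74 on the mitochondrial scale). The 1 higher gene was NELFCD of the pausing complex NELF (0.88 ± 0.20, or -0.14 on the mitochondrial scale).

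Genes of the CDK7 complexes were called lower at about the share of all genes. In the list of the CDK-activating kinase and TFIIH, 2 of 9 genes were lower (22.2%), CDK7 and GTF2H1, and 1 higher (11.1%), GTF2H5. Among all genes 18.2% were lower and 19.3% higher. The list's median was 0.44 (-0.59 on the mitochondrial scale). CCNH and MNAT1, which encode the cyclin and the assembly factor of the same kinase, were at 0.59 ± 0.27 and 0.44 ± 0.21 and did not pass, and were at -0.42 and -0.59 on the mitochondrial scale. GTF2H1 (-0.57) was no longer called without the MDA-MD-231 V50 (-0.41) or SY200/V50 library (-0.38), and GTF2H5 (0.84, or -0.19 on the mitochondrial scale) without the latter (0.66). CCNH passed without the MDA-MD-468 SY200/V50 library (0.76). Of 13 RNA polymerase II subunit genes, 8 were higher and 2 lower on the TMM scale, with a median of 0.56 that became -0.46 on the mitochondrial scale. POLR2E went from 191 to 402 CPM in MDA-MD-231 and from 107 to 192 CPM in MDA-MD-468 (0.96 ± 0.17, or -0.07 on the mitochondrial scale). POLR2D, which encodes the stalk subunit RPB4, went the other way, from 68.3 to 16.4 CPM and from 95.0 to 36.2 CPM (-1.69 ± 0.25, edgeR BH-adjusted p = 0.000128). The other lower gene, POLR2M, was at -0.69, a call that ended without 3 of the 4 libraries (-0.77 to -0.42). The count of higher genes was 3 with the MDA-MD-231 SY200/V50 library omitted and 4 with the MDA-MD-468 V50 library omitted.

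Some genes on both sides of the apoptosis decision were lower. Of 9 anti-apoptotic genes kept by the filter, 6 were lower and 1 higher, with a median of -0.90. MCL1 fell by 2.63 ± 0.57 (edgeR BH-adjusted p = 0.00188), or 6.21-fold. BCL2 fell by 1.71 ± 0.27 (edgeR BH-adjusted p = 0.000194), from 25.3 to 5.93 CPM in MDA-MD-231 and from 12.4 to 4.79 CPM in MDA-MD-468. BCL2L1, which encodes BCL-XL, was at 581 and 230 CPM in MDA-MD-231 and at 128 and 90.0 CPM in MDA-MD-468 (-0.90 ± 0.18), and the caspase inhibitor gene XIAP at -1.18 ± 0.27. BIRC3 (-1.15) and BIRC2 (-0.50) lost their calls without the MDA-MD-231 V50 (-0.73 and -0.39) or SY200/V50 library (-1.02 and -0.22). The higher gene, BCL2L2 (1.30 ± 0.33, and 0.28 on the mitochondrial scale), was not called without these same libraries either (0.87 and 0.80). Of 20 pro-apoptotic genes 8 were lower and 1 higher, with a median of -0.85, and 4 were lower without the MDA-MD-231 SY200/V50 library and 5 without the MDA-MD-468 V50 library. The pore-forming BAK1 (-1.45 ± 0.27) and the initiator caspase gene CASP8 (-0.93 ± 0.23) fell. BAD was higher (0.80, or -0.23 on the mitochondrial scale), and not called without the MDA-MD-231 SY200/V50 (0.68) or MDA-MD-468 V50 library (0.71). Of 28 p53 target genes 14 were lower and 2 higher, with a median of -1.12, and 9 were lower without the MDA-MD-231 SY200/V50 library. MDM2, the ubiquitin ligase that restrains p53, fell by 1.94 ± 0.21 (edgeR BH-adjusted p = 1.57e-05), by similar amounts in both lines (-1.76 and -2.09). AEN, XPC, SESN1 and PLK2 were at -2.31, -1.74, -2.59 and -1.96. The higher ones were TP53I3 (1.19, and 0.16 on the mitochondrial scale) and FDXR (0.92, or -0.11 on that scale, not called without the MDA-MD-231 SY200/V50 library, at 0.71).

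The feedback genes of ERK signalling and 2 lists of transcription factor genes held lower members in unlike shares. Of 16 ERK feedback genes 10 were lower and 1 higher, with a median of -1.25, and 4 were lower without the MDA-MD-231 SY200/V50 library. DUSP5, a phosphatase of ERK, was at 39.2 and 5.85 CPM in MDA-MD-231 and at 13.6 and 1.97 CPM in MDA-MD-468 (-2.76 ± 0.53, edgeR BH-adjusted p = 0.000833), SPRY4 was at -2.33 ± 0.45, SPRED2 at -1.97 ± 0.37 and DUSP7 at -2.32 ± 0.51. The higher gene was ETV4 (1.0, or -0.03 on the mitochondrial scale), which was not called without the MDA-MD-231 V50 (0.87) or SY200/V50 library (0.80). Of 23 lineage and oncogenic transcription factor genes 10 were lower and 0 higher, with a median of -0.75, and 6 were lower without the MDA-MD-231 SY200/V50 library. SOX9 was at -2.69 ± 0.39 (edgeR BH-adjusted p = 0.00011), SOX4 at -2.34 ± 0.52, and the forkhead gene FOXC1 at -3.67 ± 0.58, from 23.2 to 0.62 CPM and from 26.8 to 4.53 CPM. MYC, whose value was looked up after the comparison, was at 139 and 92.2 CPM in MDA-MD-231 and at 38.7 and 10.0 CPM in MDA-MD-468, and did not pass (-1.01 ± 0.60, edgeR BH-adjusted p = 0.193), although it passed without the MDA-MD-231 SY200/V50 library (-2.29). Of 32 immediate-early genes 10 were lower and 0 higher, with a median of -0.56, and 2, 5 and 6 were lower without the MDA-MD-231 SY200/V50, MDA-MD-231 V50 and MDA-MD-468 V50 libraries. The AP-1 gene FOSL1 fell from 774 to 205 CPM in MDA-MD-231 and from 20 to 3.87 CPM in MDA-MD-468 (-2.02 ± 0.45, edgeR BH-adjusted p = 0.00252).

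Targets of YAP and TEAD and of WNT and BMP signalling had 11 of 23 (47.8%) and 6 of 19 (31.6%) members lower, against 18.2% of all genes. Their medians were -0.73 and -1.29. One YAP and TEAD target, MYOF, was higher (0.86, or -0.17 on the mitochondrial scale), a call that ended without each of the 4 libraries in turn (0.79 to 0.88). The angiomotin genes AMOTL1 and AMOTL2, targets and inhibitors of YAP, were at -1.72 ± 0.27 and -1.75 ± 0.33, and TEAD4 at -1.65 ± 0.29. The count of lower genes went from 11 to 7 once the MDA-MD-231 SY200/V50 library was omitted. ZNRF3, a ubiquitin ligase that removes WNT receptors, was at 46.4 and 4.77 CPM in MDA-MD-231 and at 51.5 and 16.2 CPM in MDA-MD-468 (-2.44 ± 0.37, edgeR BH-adjusted p = 0.000159). The 6 WNT and BMP calls became 1 without the MDA-MD-231 SY200/V50 library and 3 without the MDA-MD-231 V50 library. Among 20 receptors and ligands of growth signalling 5 were lower and 1 higher, with a median of 0.02 (-1.04 on the mitochondrial scale), and 3 were lower without the MDA-MD-468 V50 library. The WNT receptor gene FZD7 was at -2.91 ± 0.37 (edgeR BH-adjusted p = 4.58e-05), the WNT co-receptor gene LRP6 at -1.21 ± 0.26 and IGF1R at -1.07 ± 0.22. NOTCH1 (-1.47) was no longer called without the MDA-MD-468 V50 library (-0.997) and HBEGF (-1.40) without 3 of the 4 (-1.47 to -1.02). The higher gene, FGFR1 (0.75, or -0.28 on the mitochondrial scale), was not called without the MDA-MD-231 V50 (0.62) or SY200/V50 library (0.49).

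Inflammatory and interferon genes were called in both directions, as all genes were (18.2% lower and 19.3% higher). Of 23 NF-kB and inflammatory genes 5 were lower (21.7%) and 2 higher (8.7%). Their median of 0.28 (-0.69 on the mitochondrial scale) was near the 0.24 of all genes. The inhibitors of NF-kB were among the lower ones, NFKBIE at -2.83 ± 0.28 (edgeR BH-adjusted p = 1.12e-05) and NFKBIA at -1.71 ± 0.35. RELB (-1.25), NFKB1 (-0.96) and BIRC3 (-1.15) lost their calls without the MDA-MD-231 V50 library (-0.86, -0.53 and -0.73). Neither higher gene, SOD2 (0.49, or -0.54 on the mitochondrial scale) nor TNFAIP2 (1.19, and 0.17 on that scale), was called without the MDA-MD-231 SY200/V50 library (0.33 and 0.82). Of 29 interferon-stimulated genes 8 were higher (27.6%) and 3 lower (10.3%), with a median of 0.67 that became -0.39 on the mitochondrial scale. Without the MDA-MD-231 SY200/V50, MDA-MD-468 V50 and MDA-MD-231 V50 libraries 1, 2 and 3 were higher. IFIT5 fell by 3.20 ± 0.49, from 42.8 to 5.85 CPM and from 12.9 to 0.98 CPM, and the transcription factor genes IRF1 and IRF9 were at -2.67 ± 0.50 and -2.20 ± 0.76, the latter not called without the MDA-MD-231 SY200/V50 (-1.78) or MDA-MD-468 V50 library (-1.43).

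The heat shock list held lower and, on the TMM scale, higher genes. Of 21 genes 7 were lower and 4 higher, with a median of -0.20. HSPA1A, the near-identical neighbour of HSPA1B, was at 35.6 and 3.93 CPM in MDA-MD-231 and at 236 and 27.4 CPM in MDA-MD-468 (-3.13 ± 0.38, edgeR BH-adjusted p = 3.31e-05). The co-chaperone gene DNAJB1 was at -2.20 ± 0.28, from 754 to 140 CPM and from 400 to 105 CPM, and the heat shock factor gene HSF2 at -1.77 ± 0.23. The higher ones were HSP90AA1 (0.78), FKBP4 (0.84), HSPD1 (0.60) and HSPB1 (1.21), which were at -0.25, -0.17, -0.42 and 0.20 on the mitochondrial scale. Without the MDA-MD-231 SY200/V50 or the MDA-MD-468 V50 library 1 was higher, since FKBP4, HSPD1 and HSPB1 lost their calls (0.53, 0.35 and 0.76, and 0.64, 0.34 and 0.82). Of 24 genes of the integrated stress and unfolded protein response 7 were lower and 3 higher, with a median of -0.75, and 4 were lower without the MDA-MD-231 SY200/V50 library. DNAJB9, which encodes a chaperone of the endoplasmic reticulum, was at -2.79 ± 0.47 and the transcription factor gene CEBPB at -2.29 ± 0.37. The higher ones were HSP90B1 (0.84), PDIA4 (0.87) and PHGDH (0.81), which were at -0.19, -0.15 and -0.23 on the mitochondrial scale.

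Metabolic genes were called in both directions. In cholesterol synthesis 5 of 24 genes were lower and 5 higher (20.8% each), near the 18.2% and 19.3% of all genes. The median was 0.20 (-0.82 on the mitochondrial scale). The enzyme genes SQLE and HMGCS1 were at -2.19 ± 0.34 and -1.48 ± 0.26. SQLE was at 21.4 and 4.08 CPM in MDA-MD-231 and at 111 and 25.8 CPM in MDA-MD-468. NSDHL (-0.55) was no longer called without the MDA-MD-231 V50 (-0.60) or MDA-MD-468 V50 library (-0.55), and INSIG1 (-1.29) without 3 of the 4 libraries (-1.42 to -0.93), so that 3 genes were lower without the MDA-MD-468 V50 library. The higher ones included PMVK (0.95), LSS (0.94), FDPS (0.64) and EBP (0.64), which were at -0.08, -0.08, -0.39 and -0.38 on the mitochondrial scale. Without the MDA-MD-231 SY200/V50, the MDA-MD-231 V50 and the MDA-MD-468 V50 library 1, 1 and 2 were higher. The list of hypoxia and glycolysis had 9 of 23 genes higher and 6 lower, with a median of 0.62 that became -0.40 on the mitochondrial scale. GAPDH, a glycolytic enzyme gene, went from 5960.2 to 12808 CPM in MDA-MD-231 and from 3980 to 6973 CPM in MDA-MD-468 (0.97 ± 0.12, edgeR BH-adjusted p = 4.95e-05, or -0.06 on the mitochondrial scale). PGK1 was at 0.88 ± 0.14, or -0.15 on that scale. The secreted peptide gene ADM and PFKFB3, an inducible regulator of glycolysis, were lower, at -2.31 ± 0.43 and -1.44 ± 0.33. Omitting the MDA-MD-231 SY200/V50 library gave 3 higher and 2 lower, omitting the MDA-MD-231 V50 library 3 higher, and omitting the MDA-MD-468 V50 library 5 higher and 3 lower. Of 18 circadian clock genes 8 were lower and 0 higher, with a median of -1.08, and 2, 2 and 5 were lower without the MDA-MD-231 SY200/V50, MDA-MD-468 V50 and MDA-MD-231 V50 libraries. PER3 was at 15.4 and 7.47 CPM in MDA-MD-231 and at 107 and 36.0 CPM in MDA-MD-468 (-1.36 ± 0.35), and was not called without the MDA-MD-468 V50 library (-0.88).

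Mitotic and replication genes held some of the most precisely measured falls. Of 30 genes of G2 and mitosis 11 were lower and 1 higher, with a median of -0.50. TTK, the spindle checkpoint kinase gene, was at 81.0 and 13.4 CPM in MDA-MD-231 and at 118 and 24.1 CPM in MDA-MD-468 (-2.44 ± 0.23, edgeR BH-adjusted p = 7.09e-06). CENPF, AURKA, MKI67 and the cyclin gene CCNB1 were lower, at -2.03 ± 0.23, -1.63 ± 0.21, -1.68 ± 0.30 and -1.17 ± 0.14. PTTG1 was higher (0.60, or -0.44 on the mitochondrial scale), and not called without the MDA-MD-231 SY200/V50 (0.52) or MDA-MD-468 V50 library (0.55). Of 38 genes of DNA replication and E2F 10 were lower (26.3%) and 9 higher (23.7%), against 18.2% and 19.3% of all genes. Their median of 0.16 became -0.85 on the mitochondrial scale. The lower ones included the replication licensing genes CDT1 (-2.41 ± 0.43), CDC6 (-1.54 ± 0.28) and MCM10 (-2.32 ± 0.36) and the replisome gene GINS3 (-2.31 ± 0.35). MCM10 was at 180 and 18.6 CPM in MDA-MD-231 and at 51.1 and 17.4 CPM in MDA-MD-468. Without the MDA-MD-231 SY200/V50, MDA-MD-468 V50 and MDA-MD-231 V50 libraries 3, 3 and 4 were higher. Of 34 genes of homologous recombination and the Fanconi pathway 10 were lower and 3 higher, with a median of -0.26. BRCA2 fell from 28.7 to 6.47 CPM and from 27.3 to 8.53 CPM (-1.89 ± 0.30, edgeR BH-adjusted p = 0.000235), FANCM was at -2.71 ± 0.37, RAD54L at -1.58 ± 0.22, and FANCF at -3.16 ± 0.43 at low levels (2.58 and 0.23 CPM, the latter from 3 counts, and 8.09 and 0.98 CPM). The higher ones were RAD51AP1 (1.30, and 0.26 on the mitochondrial scale), FANCI (0.64, or -0.39) and ATM (0.61, or -0.43), of which FANCI was not called without the MDA-MD-231 SY200/V50 library (0.55), nor ATM without 3 of the 4 libraries (0.38 to 0.62). Histone genes, whose near-identical copies may share reads, had 5 of 38 higher and 0 lower, with a median of 0.58 that became -0.46 on the mitochondrial scale. These were H1-2, H2BC12, H2BC8, H3C10 and H3C2 (0.64 to 2.05), 0 of which were called without the MDA-MD-468 V50 library, 1 without the MDA-MD-231 SY200/V50 library and 2 without the MDA-MD-231 V50 library.

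By count, zinc finger genes were the largest group of lower mRNAs among the lists, which is also the longest list. Their share lower, 67.3%, was like those of P-TEFb, 7SK and elongation (67.9%) and of the anti-apoptotic genes (66.7%). Of 495 genes named ZNF, most of them encoding DNA-binding repressors, 333 were lower and 10 higher, with a median of -1.55 (-2.60 on the mitochondrial scale), and 399 were below 0 in both lines. Among the 232 with a mean of 10 CPM or more, 171 were lower and 8 higher. When the MDA-MD-231 SY200/V50 library was omitted, 181 of the list were lower. ZNF43 was at 21.3 and 2.46 CPM in MDA-MD-231 and at 25.1 and 4.07 CPM in MDA-MD-468 (-2.86 ± 0.26, edgeR BH-adjusted p = 7.09e-06). ZNF282 and ZNF180 were at -2.63 ± 0.27 and -3.15 ± 0.34. In MDA-MD-231 ZNF180 was above its 0 h control with V50 at 12 h, as GEMIN4 was in that line. With V50 it was at 6.16, 9.07 and 39.2 CPM at 3, 6 and 12 h there, where DMSO had 14.5 CPM. Against the controls the list's median at 12 h was 0.33 with V50 and -1.24 with SY200/V50.

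Of 3 lists of genes that act on RNA, that of mRNA turnover had the largest share of lower members. Of 27 genes of mRNA turnover and deadenylation 15 were lower and 1 higher, with a median of -1.06, and 8 were lower without the MDA-MD-231 SY200/V50 library. Subunits of the CCR4-NOT deadenylase were among them, CNOT9 at -1.50 ± 0.18 (edgeR BH-adjusted p = 2.98e-05) and CNOT2 at -2.27 ± 0.35, from 78.8 to 9.16 CPM and from 63.9 to 20.5 CPM. The decapping gene DCP1A was at -2.07 ± 0.33 and ZFP36L2, which encodes a protein that directs mRNAs to decay, at -2.68 ± 0.55. The higher gene, PAN2 (0.88, or -0.17 on the mitochondrial scale), was not called without 3 of the 4 libraries (0.58 to 0.96). Of 20 genes of SR proteins and CLK kinases, which act in splicing, 8 were lower and 1 higher, with a median of -0.38, and 3 were lower without the MDA-MD-231 SY200/V50 library. SRSF6, SRSF4 and the SR protein kinase gene SRPK2 were at -1.38 ± 0.18, -1.34 ± 0.21 and -1.27 ± 0.19. The higher gene, SRSF9 (0.48, or -0.55 on the mitochondrial scale), was not called without 3 of the 4 libraries (0.31 to 0.44). The 21 noncoding RNAs of the nucleus and snoRNA hosts included 6 higher (28.6%) and 3 lower ones (14.3%), against 19.3% and 18.2% of all genes. Their median was 0.04 (-1.01 on the mitochondrial scale). SNHG16 fell by 1.63 ± 0.27, whereas SNHG3 (-1.13) and SNHG12 (-1.21) lost their calls without the MDA-MD-231 V50 (-0.66 and -0.80) or SY200/V50 library (-0.54 and -0.97), and SNHG12 also without the MDA-MD-468 SY200/V50 library (-1.65). SNHG29 went from 506 to 952 CPM and from 317 to 586 CPM (0.90 ± 0.17, or -0.13 on the mitochondrial scale). Omitting the MDA-MD-468 V50, MDA-MD-231 V50 and MDA-MD-231 SY200/V50 libraries gave 2, 3 and 3 higher.

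The largest share of higher genes was in the lists of the translation and respiration machinery, and there the direction was that of TMM scaling. Among 82 genes for cytosolic ribosomal proteins there were 68 higher and 1 lower, with a median of 0.69 that became -0.34 on the mitochondrial scale, where 4 were lower. RPS2 went from 1740.3 to 3580 CPM in MDA-MD-231 and from 824 to 1745 CPM in MDA-MD-468 (1.06 ± 0.18, edgeR BH-adjusted p = 0.000408, and 0.03 on the mitochondrial scale). The lower one, RPS10 (-1.66), was not called without the MDA-MD-231 V50 (-1.22) or SY200/V50 library (-1.05). Of 78 nuclear genes of oxidative phosphorylation 67 were higher and 1 lower, with a median of 0.79 that became -0.23 on the mitochondrial scale. The ATP synthase gene ATP5F1B went from 1069.7 to 2034 CPM and from 625 to 1149 CPM (0.90 ± 0.14, or -0.12 on the mitochondrial scale). The lower one, NDUFV3 (-0.64), was not called without the MDA-MD-231 V50 (-0.36) or SY200/V50 library (-0.55). The 13 mitochondrially encoded mRNAs had 12 higher and 0 lower, with a median of 1.03 (-0.01 on their own scale). MT-CO1, a subunit gene of cytochrome oxidase, went from 10202 to 19749 CPM and from 22260 to 51056 CPM (1.07 ± 0.16, edgeR BH-adjusted p = 0.000124). Omitting the MDA-MD-468 V50 library gave 23 ribosomal and 38 oxidative phosphorylation genes higher, and omitting the MDA-MD-231 SY200/V50 library gave 32 and 43. Over the 30 lists, 17 had a median below 0 on the TMM scale and 30 on the mitochondrial scale.

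**Figure D4:**
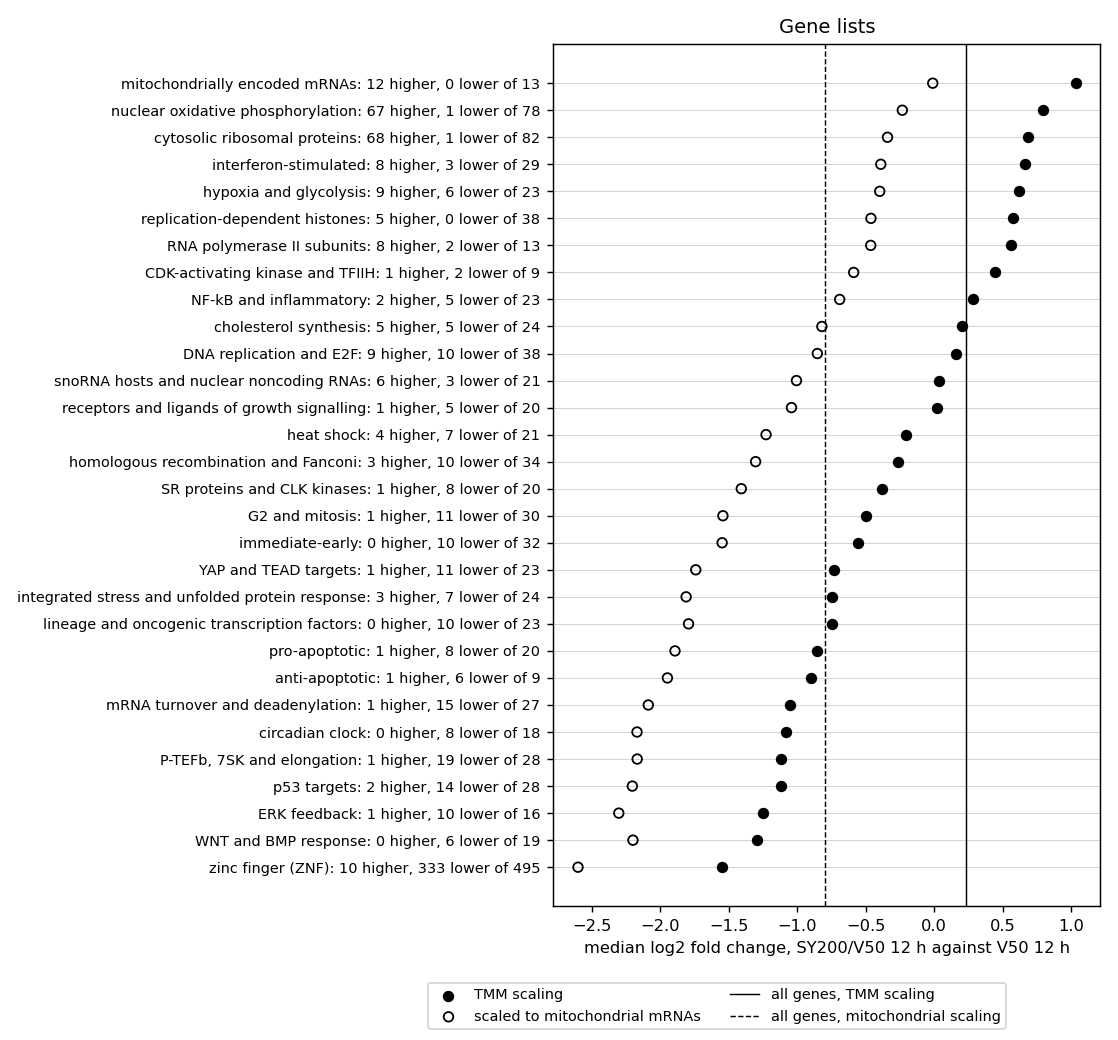
Median log2 difference, SY200/V50 minus V50 at 12 h (x), of each gene list (y, with the number of members called higher and lower of those kept), on the TMM scale (filled) and scaled to the 13 mitochondrial mRNAs (open); vertical lines mark the medians of all genes. The zinc finger list lies lowest at -1.55, and the lists to the right of 0 on the TMM scale all lie left of 0 on the mitochondrial scale.

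The 12 largest rises were mostly of genes that 1 of the lines barely expressed, since 9 of the 12 were under 1 CPM in a V50 12 h library. COL17A1, a collagen of epithelial anchoring junctions (chromosome 10, 104031286 to 104085957, minus strand), was at 9.56 and 28.1 CPM in MDA-MD-231 and at 0.85 and 3.61 CPM in MDA-MD-468 (1.83 ± 0.39, edgeR BH-adjusted p = 0.00185, and 0.80 on the mitochondrial scale). APBB1, an adaptor of the amyloid precursor protein, was at 10.0 and 29.9 CPM and at 2.59 and 8.72 CPM (1.68 ± 0.28, edgeR BH-adjusted p = 0.000288, and 0.64 on the mitochondrial scale). SLAMF7, a receptor of immune cells, was at 42.9 and 118 CPM in MDA-MD-231 and at 0.37 and 1.51 CPM in MDA-MD-468 (1.59 ± 0.32, and 0.61 on the mitochondrial scale). The calls of these 3 held without each of the 4 libraries. Those of FLNC (2.18), IGFBP1 (2.05), PYGM (1.98), SLC38A4 (1.87), COL6A1 (1.72), PAPPA (1.69), RPH3AL (1.64), ABLIM3 (1.60) and SERPINB7 (1.59) each ended without at least 1 of them. Without the MDA-MD-468 SY200/V50 library, for example, FLNC was at 0.89 and PYGM at 0.59. PYGM, the muscle glycogen phosphorylase gene, was low in the controls (0.18 to 0.37 CPM), at 5.01 and 9.89 CPM with V50 and at 10.1 and 54.3 CPM with SY200/V50.

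Against the controls SY200 alone at 12 h gave 245 genes higher (1.30%) and 215 lower (1.14%), and on the mitochondrial scale 159 higher and 985 lower. The genes called lower with SY200/V50 against V50 had a median of 0.14 with SY200 alone against the controls, with 35.5% below 0 where all genes had 50.8%. The difference that SY200 made on top of V50 differed from the one it made alone for 6158 genes (32.6%), 2945 upward (15.6%) and 3213 downward (17%), and on the mitochondrial scale 292 upward and 4889 downward. The difference with SY200 alone is against 0 h controls, so it also holds any change over 12 h in culture. Such a change cannot be told apart here from a departure from the sum of the agents. HSPA1B had 232 and 171 CPM with SY200 alone at 12 h, 220 and 173 CPM with V50 alone and 9.32 and 19.3 CPM with both, the MDA-MD-231 value first. Its difference beyond the sum of the single agents was -4.93 (edgeR BH-adjusted p = 8.43e-05). For RBM15 it was -5.21 (edgeR BH-adjusted p = 3.20e-05), with 85.8 and 99.9 CPM with SY200, 86.9 and 108 CPM with V50 and 3.77 and 12.1 CPM with both. For MCL1 it was -2.81 (edgeR BH-adjusted p = 0.00701) and for CDK7 -1.80 (edgeR BH-adjusted p = 0.0058). POLR2A, which encodes the catalytic subunit of the polymerase, was among the higher genes of its list: SY200 alone gave 1428 and 522 CPM, V50 183 and 162 CPM and both 357 and 242 CPM, so that its difference against V50 was 0.75 ± 0.28 (-0.30 on the mitochondrial scale), a call that ended without 3 of the 4 libraries (0.46 to 0.87).

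The difference between the lines was tested gene by gene. The test of the difference between the lines passed for 6 genes of 18911 (0.0317%), all of which fell further in MDA-MD-231, and 2837 had an unadjusted p under 0.05. DESeq2 called 865, 507 with the lower difference in MDA-MD-231 and 358 with the lower one in the other line. FBXW7, which encodes the substrate receptor of a ubiquitin ligase for cyclin E and MYC, was at 39.4 and 0.92 CPM in MDA-MD-231 and at 31.4 and 9.71 CPM in MDA-MD-468. YTHDC1, a nuclear reader of methylated mRNA, was at 255 and 44.3 CPM in MDA-MD-231 and at 147 and 129 CPM in MDA-MD-468, where the V50 and SY200/V50 libraries are close. The ribosome assembly genes BRIX1, MPHOSPH10 and RIOK2, and CDR2, were the others, and these 6 were named after the test. Among the genes shown above the difference between the lines did not pass, as for CDK7 (2.17, edgeR BH-adjusted p = 0.052) and MCL1 (2.34, edgeR BH-adjusted p = 0.203).

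Genes with few exons were called lower more often. This grouping was made after the values had been seen, and is a description. Exon numbers came from GENCODE release 29 on GRCh38 and matched 13927 protein-coding genes of those tested, 92.4% of the lower and 85.5% of the higher genes. Among protein-coding genes with a mean of 10 CPM or more over the 22 libraries, 210 of 388 with 1 coding exon were lower (54.1%) and 14.2% higher, whereas 2304 of 8949 with 2 or more coding exons were lower (25.7%) and 28.8% higher. The median difference was -1.10 in the first class and 0.15 in the second (-2.15 and -0.89 on the mitochondrial scale). Without the zinc finger genes, and with genes of all levels, the shares lower were 38.7% and 20.1%. Of the 12 largest falls 7 have 1 coding exon: ZNF281, B3GNT2, HPS6, HASPIN, ZNF526, RIOX1 and HSPA1B. By gene length the share lower went from 21.2% of genes under 5 kb through 23.7%, 27.7% and 31.2% in the classes up to 20, 50 and 100 kb to 27.8% of longer genes, and the share higher, on the TMM scale, from 42.8% through 34.3%, 26.6% and 22.9% to 22.7%. Omitting the MDA-MD-231 SY200/V50 library gave 33.8% against 16.2% for the classes by coding exons.

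**Figure D5:**
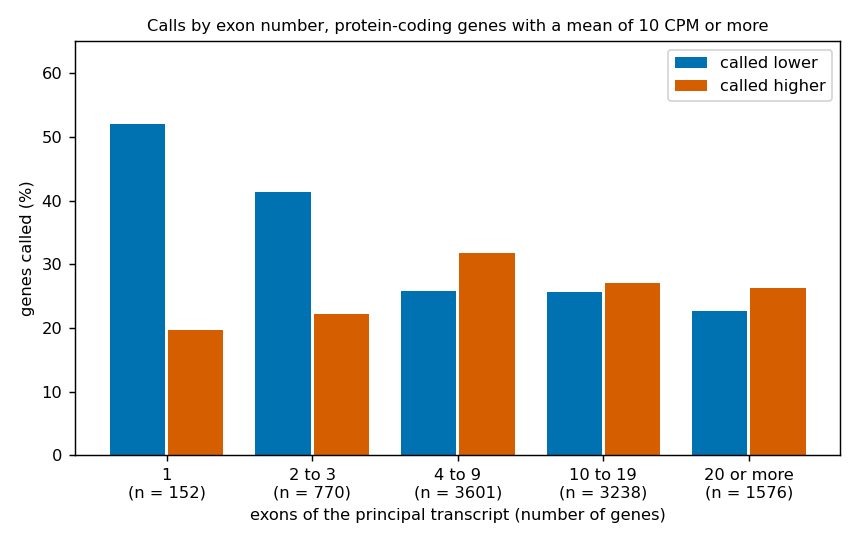
Share of protein-coding genes with a mean of 10 CPM or more (y, percent) that were called lower (blue) and higher (orange) with SY200/V50 against V50 at 12 h, by the number of exons of the principal transcript (x, with the number of genes). The share lower is 52.0% for genes of 1 exon and 22.7% for those of 20 or more; the shares higher are those of TMM scaling.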

How the data were processed

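The 22 inhibitor libraries were sequenced from 3' ends of poly(A) RNA with QuantSeq, per the labels' protocols. The authors deposited whole-number counts per gene symbol for 59428 symbols, and the submitters' processing notes name STAR 2.7.10a, FastQC and the build GRCh38. The counter, its annotation and its strand setting were not stated in the sources used here. Libraries were assigned to groups from their labels, and the cell line pairs them, which the labels give. From the deposited counts, edgeR 4.0.16 (R 4.3.3, limma 3.58.1) kept 18911 genes with filterByExpr (minimum count 10, minimum total 15), scaled libraries by TMM and fitted cell line and 10 conditions, the 4 DMSO and parental libraries being 1 control, with 11 residual degrees of freedom (9 in the model with terms for the line difference). Quasi-likelihood F tests were 2-sided with Benjamini-Hochberg adjustment over all genes (threshold 0.05), and standard errors are those the F statistic implies. The script was tested on simulated data. The 12 largest rises and falls (mean of at least 10 CPM over the 4 libraries, same sign in both lines), the 4 members of each list with the smallest adjusted p, and CDK1, CDK7 and CDK9 were named by rule; further genes were named after their values were seen, and a few that the rule names are not reported here. The comparison and the gene lists were chosen with earlier results of these data known. Alternatives were DESeq2 1.42.0 and its size factors, limma-voom, scaling to the 13 mitochondrial mRNAs, no filter, the 4 libraries alone, no term for the line, and leaving out each library, where the remaining library of a condition is assumed to vary like the others. The 11 knockout libraries were not used.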

Additional observations from a re-analysis of the deposited data

Results flagged for a closer look

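For 6 genes the difference between SY200/V50 and V50 at 12 h differed between the cell lines by the edgeR test of that difference. All 6 fell further in MDA-MD-231, by 3.01 for BRIX1, 3.19 for CDR2, 3.71 for FBXW7, 2.71 for MPHOSPH10, 2.58 for RIOK2 and 2.33 for YTHDC1 on the log2 scale. BRIX1, a ribosome assembly gene, was at 159 and 11.8 CPM in MDA-MD-231 and at 60.0 and 35.8 CPM in MDA-MD-468. YTHDC1 had the smallest of these differences (edgeR BH-adjusted p = 0.00727). Each line has 1 library per treatment, so the spread behind this test comes from the other inhibitor libraries, and the number of such genes varied from 0 to 865 over the alternatives.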

How the results depend on the processing

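Of the 198 genes looked up by name, 193 passed the threshold and 120 of these kept their call without each of the 4 libraries. The 7102 calls fell to 0 with the 4 libraries alone (0 higher, 0 lower, and 4301 at an unadjusted edgeR p under 0.05) and to 1073 with no replicate block, that is no term for the cell line that pairs the libraries (217 higher, 856 lower), while leaving out 1 of the 4 libraries gave 3631 to 6929 calls (1596 to 3300 higher, 2035 to 3629 lower). Scaling to mitochondrial mRNAs gave 38 higher and 7597 lower. The genes that differed between the lines numbered 58 with DESeq2 size factors, 0 with mitochondrial scaling (2583 at an unadjusted edgeR p under 0.05), 1 without the filter and 865 with DESeq2 (507 lower in MDA-MD-231, 358 lower in MDA-MD-468). The genes whose difference changed from 3 to 12 h numbered 4922 with mitochondrial scaling (12 upward, 4910 downward), 1410 without the filter and 4191 with DESeq2. Of the genes lowered by V50 at 3 h, 0 were lower at 12 h with the 4 libraries alone, 224 without the block and 412 to 535 when 1 library was left out. Lists with a median below 0 numbered 30 with mitochondrial scaling and 16 to 21 when 1 library was left out. The share of lower genes with TATAAA was 3.53% without the block and 3.68% to 4.35% when 1 library was left out. With mitochondrial scaling 45 named genes changed sign: GTF2H5 (-0.19), POLR2E (-0.066), POLR2L (-0.12), POLR2G (-0.10), HSP90B1 (-0.19), PDIA4 (-0.15), PMVK (-0.084), GAPDH (-0.063), PGK1 (-0.15), ENO1 (-0.19), SNHG29 (-0.13), SNHG6 (-0.22), SNHG32 (-0.19), RPSA (-0.088), RPLP1 (-0.070), RPS20 (-0.23), NDUFA4 (-0.081), ATP5F1B (-0.12), NDUFS5 (-0.10), ATP5F1E (-0.13), H1-2 (-0.19), H2BC12 (-0.40), HEXIM1 (-0.74), CCNH (-0.42), MNAT1 (-0.59), POLR2A (-0.30), BAD (-0.23), FDXR (-0.11), FANCI (-0.39), ATM (-0.43), PTTG1 (-0.44), NELFCD (-0.14), FGFR1 (-0.28), MYOF (-0.17), ETV4 (-0.030), SOD2 (-0.54), HSP90AA1 (-0.25), FKBP4 (-0.17), HSPD1 (-0.42), PHGDH (-0.23), LSS (-0.075), FDPS (-0.39), EBP (-0.38), SRSF9 (-0.55) and PAN2 (-0.17). The cause was not tested, apart from the scaling itself, which lowers every difference by about the shift of the median. Genes under about 1 CPM rest on few counts, which limits their precision.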
